A study of Mus musculus with 20 samples.

Results

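Autophagy, mitophagy and lysosome genes were followed in the mouse left ventricle across a cardiomyocyte knockout of the glucocorticoid receptor and across 2 times of day. The group was a list of 37 named genes, found by symbol in the deposited count tables. All 37 were found among 24059 genes, and all 37 passed the expression filter that left 14007 genes for testing. The list holds 10 genes of initiation, nucleation and membrane supply, 6 of the conjugation machinery, 5 of the Atg8 family, 7 of cargo receptors and mitophagy, 4 of nutrient sensing and transcription, and 5 of the lysosome.

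The samples were CardioGRKO and GRflox hearts at ZT12, when the lights went off, and CardioGRKO and GRflox hearts at ZT0, when the lights went on, with 5 libraries in each of the 4 groups. All mice were adult C57BL/6 males of about 9 to 13 weeks. All carried floxed alleles of the glucocorticoid receptor gene (GRfl/fl), and CardioGRKO mice also carried alphaMHCCre/+, a Cre recombinase under a promoter active in cardiomyocytes. GRflox littermates had no Cre, so Cre and the loss of the receptor cannot be told apart. RNA came from the whole free wall of the left ventricle, in which other cells keep the receptor gene. The labels number the replicates without tying the numbers to animals, so p-values measure the spread between libraries.

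Autophagy encloses part of the cytoplasm in a double membrane, the autophagosome, and delivers it to the lysosome for breakdown. The Ulk kinase complex and the Beclin lipid kinase complex start the membrane, conjugation enzymes attach Atg8 proteins (the LC3 and GABARAP families) to it, and cargo receptors tie ubiquitin-tagged cargo or mitochondria to Atg8. In the heart the pathway is known for clearing damaged mitochondria and for supplying nutrients during fasting, and the nutrient-sensing kinase complex mTORC1 restrains it.

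Library totals ran from 5854462 to 37648421 counts with a median of 23223656. The shallowest library, CardioGRKO ZT0 replicate 1, was also the only library with another number in its deposited file. What the number marks is not stated, and with 1 library it cannot be told apart from depth or set up as a comparison of its own. Nr3c1, the targeted gene, had 46.8 to 55.9 CPM (counts scaled to library size and composition) in CardioGRKO and 95.3 to 117 CPM in GRflox hearts at ZT12, and 51.9 to 61.1 CPM in CardioGRKO and 106 to 122 CPM in GRflox hearts at ZT0. The groups did not overlap. The summed level of 8 cardiomyocyte markers was 82493 to 96380 CPM in CardioGRKO and 99922 to 105431 CPM in GRflox hearts at ZT12, and 83067 to 89411 CPM in CardioGRKO and 96462 to 100218 CPM in GRflox hearts at ZT0. Of these markers 7 fell at ZT12 and 5 at ZT0 and none rose, with median log2 fold changes of -0.20 and -0.17. Of 6 endothelial markers 3 fell at ZT12 and 4 at ZT0, with medians of -0.17 and -0.18. Of 6 pericyte and smooth muscle markers 1 fell at ZT12 and 3 at ZT0, with median log2 fold changes of -0.22 and -0.23. Of 7 fibroblast markers 1 rose at ZT12 and none changed at ZT0, with medians of 0.07 and 0.00. None of 7 macrophage markers changed between genotypes at either time. Of all genes tested, 10.4% rose and 10.7% fell at ZT12, and 7.36% rose and 7.35% fell at ZT0. Between times, the endothelial sum was 880 to 1024 CPM at ZT12 and 1093 to 1221 CPM at ZT0 in CardioGRKO hearts, and 1016 to 1105 CPM at ZT12 and 1246 to 1382 CPM at ZT0 in GRflox hearts. Of the 6 markers 3 were lower at ZT12 in CardioGRKO and 4 in GRflox hearts, where 4.75% and 9.17% of all genes were. Kdr fell most, averaging 195 CPM at ZT12 and 311 CPM at ZT0 in CardioGRKO, and 199 and 342 CPM in GRflox hearts. Esam was not lower at ZT12, averaging 41.9 CPM against 41.3 CPM in CardioGRKO and 51.0 CPM against 47.1 CPM in GRflox hearts. Of 7 macrophage markers 1 was higher and 1 lower at ZT12 in CardioGRKO, and 2 were higher and 1 lower in GRflox hearts. Cx3cr1 averaged 2.67 CPM at ZT12 and 7.26 CPM at ZT0 in CardioGRKO, and 2.73 and 7.07 CPM in GRflox hearts. Of 7 fibroblast markers 2 were lower at ZT12 in GRflox hearts alone. Of 6 pericyte and smooth muscle markers 2 were higher at ZT12 in CardioGRKO hearts alone, and of 8 cardiomyocyte markers 1 was higher in GRflox hearts alone. Of all genes tested, 4.42% were higher at ZT12 in CardioGRKO and 8.13% in GRflox hearts. No marker of any of these lists was at 0 in any group. In bulk tissue, fewer cells of a type and less RNA per cell cannot be told apart.

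The sequences shown are the start regions of the 4 genes with the smallest adjusted p-values in any comparison, Sesn1, Bnip3, Map1lc3b and Sqstm1, to give the DNA around these starts. They are printed as the 250 bases before and 50 bases after the annotated start, 5′ to 3′ on the gene's strand, from RefSeq on GRCm38.p6 (mm10). Sesn1 has 2 annotated starts, of which the first is printed. Capitals mark a match to a searched motif, in Sesn1 the forkhead element GTAAACA read on the opposite strand and in Bnip3 the E-box CACGTG.
Sesn1, chr10:41810324-41810623, plus strand: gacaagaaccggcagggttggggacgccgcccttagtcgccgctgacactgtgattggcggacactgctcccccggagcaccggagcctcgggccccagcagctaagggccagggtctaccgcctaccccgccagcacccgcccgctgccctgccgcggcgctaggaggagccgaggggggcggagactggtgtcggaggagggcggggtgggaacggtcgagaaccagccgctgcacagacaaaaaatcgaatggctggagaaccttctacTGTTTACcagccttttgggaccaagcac
Bnip3, chr7:138909457-138909756, minus strand: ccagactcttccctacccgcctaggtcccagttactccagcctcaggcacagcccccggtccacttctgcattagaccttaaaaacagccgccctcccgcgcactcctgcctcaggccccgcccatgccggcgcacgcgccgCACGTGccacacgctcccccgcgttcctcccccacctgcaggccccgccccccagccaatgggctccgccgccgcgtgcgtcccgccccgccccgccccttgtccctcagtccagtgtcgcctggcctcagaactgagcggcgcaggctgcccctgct
Map1lc3b, chr8:121590188-121590487, plus strand: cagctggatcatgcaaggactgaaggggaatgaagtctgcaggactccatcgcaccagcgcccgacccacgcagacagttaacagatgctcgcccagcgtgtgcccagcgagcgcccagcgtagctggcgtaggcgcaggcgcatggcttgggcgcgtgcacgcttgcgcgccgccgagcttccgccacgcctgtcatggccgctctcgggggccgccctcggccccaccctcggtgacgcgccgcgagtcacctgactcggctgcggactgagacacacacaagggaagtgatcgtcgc
Sqstm1, chr11:50210771-50211070, minus strand: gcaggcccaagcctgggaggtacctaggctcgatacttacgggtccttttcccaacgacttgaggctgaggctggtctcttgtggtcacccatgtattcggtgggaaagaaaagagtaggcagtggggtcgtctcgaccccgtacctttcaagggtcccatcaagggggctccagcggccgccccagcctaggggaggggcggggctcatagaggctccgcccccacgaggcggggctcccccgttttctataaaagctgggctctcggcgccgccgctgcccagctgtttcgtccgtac

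Windows of this kind were held for 29 of the 37 genes (33 windows, since some genes have several starts). Every motif was searched on both strands. The E-box CACGTG, a letter string bound by clock factors and by TFEB, stood in 8 of the 33 windows (24.2%), those of Atg14, Atg3, Atg5, Atg7, Bnip3, Ctsd, Ctsl and Lamp1, and in 7.15% of 32851 windows of all genes. The longer string GTCACGTG, which contains the E-box, stood in 5 of them (15.2%) and in 2.25% of all windows. The string AGAACA, shared by many glucocorticoid receptor binding sites, stood in 3 member windows (9.09%), those of Atg5, Lamp2 and Optn, and in 19.0% of all windows, and AGAACA followed after 3 bases by TGTTCT, the full palindrome, stood in none of the 33. The forkhead element GTAAACA stood in 1 member window (3.03%), that of the first Sesn1 start, and in 3.65% of all windows, and TTATGTAA, a D-box, stood in no member window. Median GC content was 60.0% in member windows and 52.7% in all windows. A match is a description of letters and not of a bound site.

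Levels between genes were compared per kilobase of annotated exon. The lysosomal protease gene Ctsd was highest with a median of 611 CPM per kb over the 20 libraries. Pink1, the kinase gene that marks damaged mitochondria for removal, followed with 311 CPM per kb, then the Atg8 gene Map1lc3a with 270 CPM per kb (range over libraries 227 to 340.4) and the lysosomal membrane gene Lamp1 with 216 CPM per kb (range 189 to 254). The ranges of these neighbours overlapped, except that the lowest Ctsd library (525 CPM per kb) lay above the highest Pink1 library (376 CPM per kb). At the low end were Atg14, a subunit of the Beclin complex, with 2.64 CPM per kb and Sesn2 with 1.76 CPM per kb. Conjugation genes lay at 3.28 CPM per kb (Atg7) to 11.04 CPM per kb (Atg3). Genes of other roles lay in the same range, such as Becn1 (8.87 CPM per kb) and Wipi2 (4.88 CPM per kb). Exon length here was the union over all annotated transcripts, so levels also depend on that annotation. Of the 37 genes, 8 share over 10% of their exon bases with another annotated gene, so their levels are less certain. They are Becn1, Ctsd (34.4%), Atg9a (32.6%), Gabarapl1, Ctsl (26.8%), Bnip3, Sqstm1 and Ctsb (12.8%). The median spread within groups, as the coefficient of variation, was 2.89% for Atg16l1, the steadiest member, and 11.5% for Sesn2, the least steady.

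**Figure D1:**
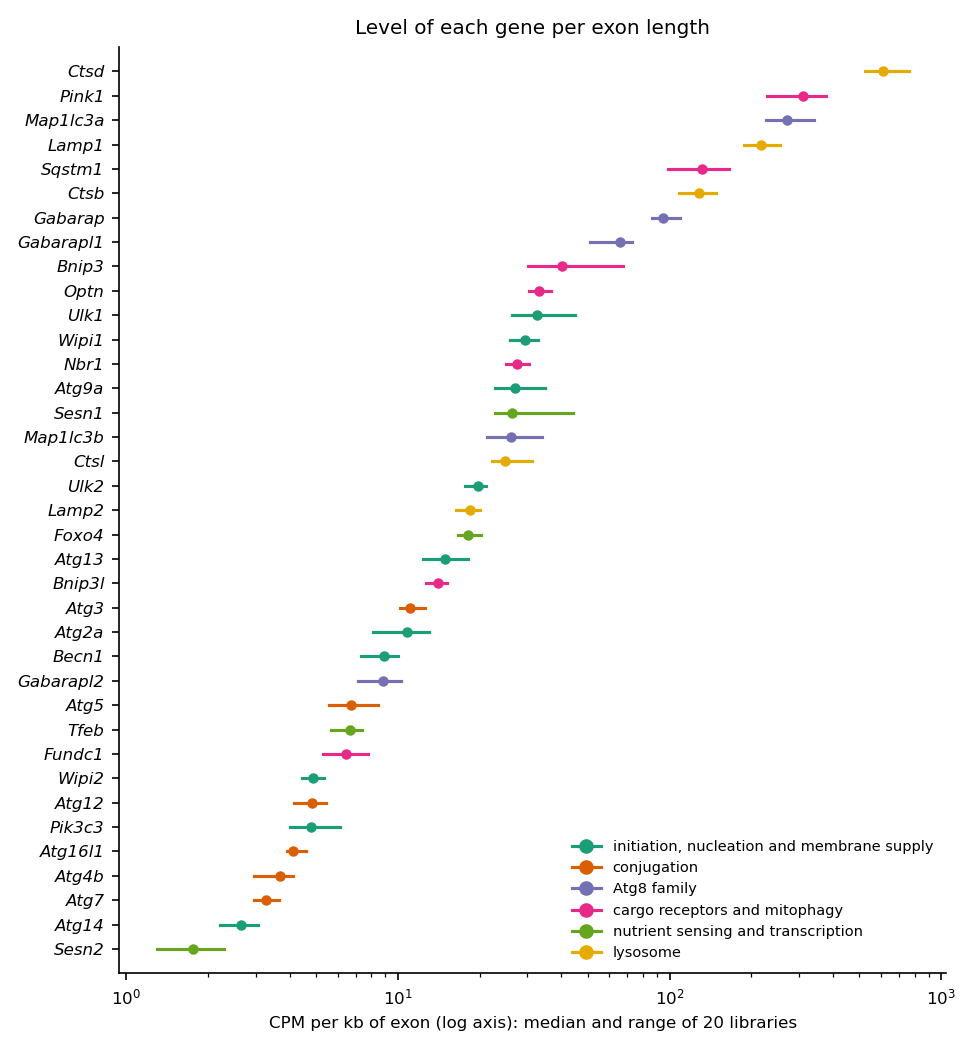
Level of each of the 37 genes in CPM per kb of exon (log axis), as the median (point) and range (line) over 20 libraries, coloured by role. Ctsd is highest with 611 CPM per kb, and Sesn2 lowest with 1.76 CPM per kb.

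The first question was how the genes differed between genotypes. At ZT12, CardioGRKO hearts had lower RNA of the mitophagy receptor gene Bnip3, the sestrin gene Sesn1 and the Atg8 gene Map1lc3b. Sesn2 and Wipi1 were higher. Of the 5 lysosome genes of the list 3 were lower, but none of these calls held in every alternative run. By edgeR's quasi-likelihood test with Benjamini-Hochberg adjustment over all genes and a threshold of 0.05, 12 of the 37 genes (32.4%) changed at ZT12, 2 higher and 10 lower, where 21.1% of all genes tested changed (10.4% higher and 10.7% lower). The median log2 fold change of the 37 genes was -0.03, against 0.00 for all genes tested. At ZT0, 7 of 37 (18.9%) changed, 5 higher and 2 lower, where 14.7% of all genes tested changed (7.36% higher and 7.35% lower). The median was -0.01 for the 37 genes and -0.01 for all genes. In 6 members at ZT12 and 4 at ZT0 the libraries of the genotypes did not overlap, as in 13.8% and 11.9% of all genes.

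By role at ZT12, 2 initiation genes fell and 1 rose of 10, none of 6 conjugation genes changed, 1 of 5 Atg8 genes fell, 2 of 7 receptor and mitophagy genes fell, 2 of 4 sensing and transcription genes fell and 1 rose, and 3 of 5 lysosome genes fell. At ZT0, 2 initiation genes, 1 Atg8 gene, 1 sensing gene and 1 lysosome gene rose, and 1 Atg8 gene and 1 mitophagy gene fell. The ZT12 count was 10 to 12 when any 1 library was left out. The ZT0 count was less steady: it was 4 without GRflox ZT0 replicate 2, 4 or 5 or without CardioGRKO ZT0 replicate 1, and 3 without CardioGRKO ZT0 replicate 2.

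**Figure D2:**
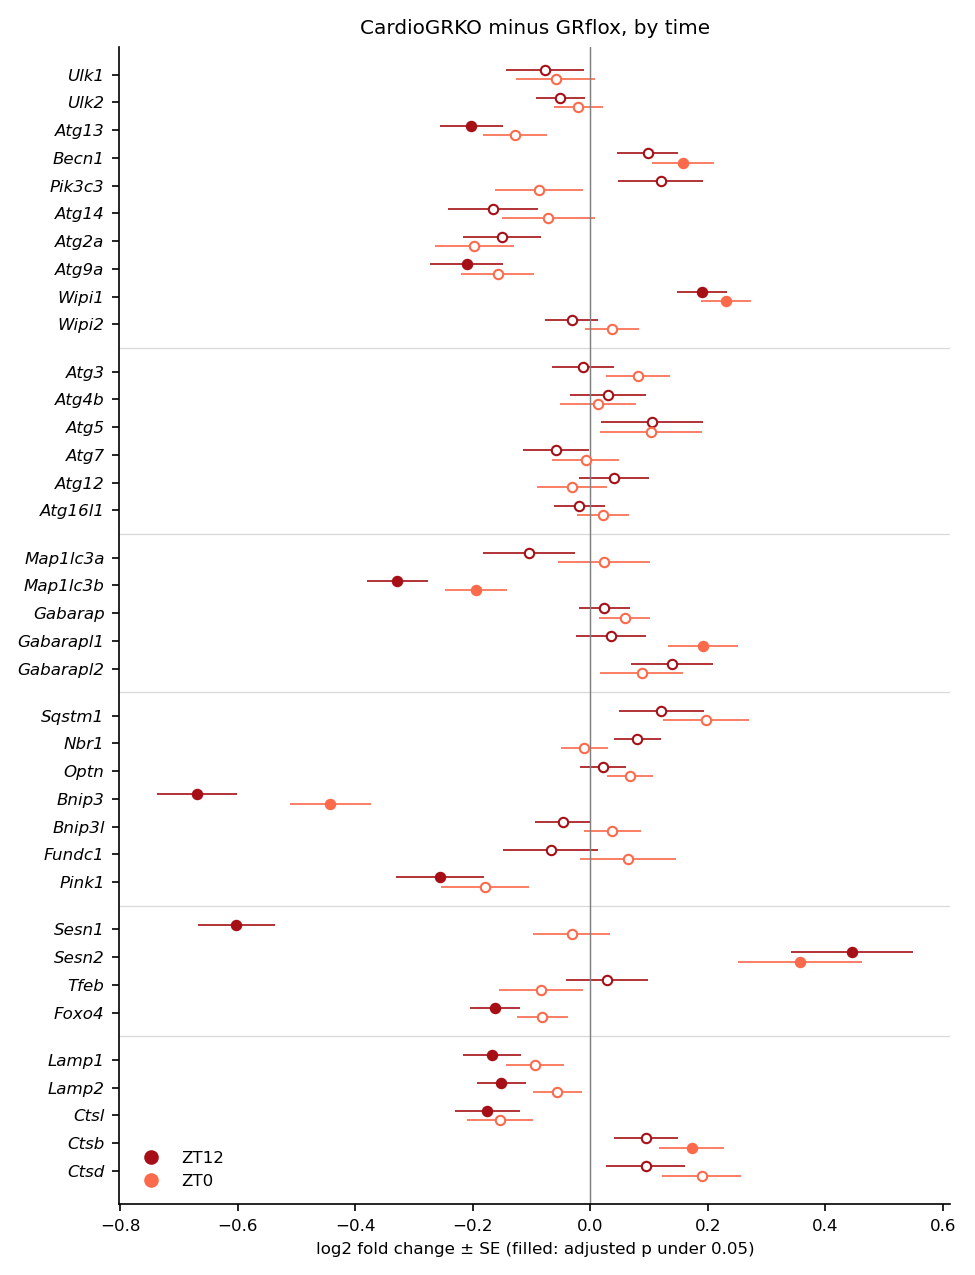
Log2 fold change of CardioGRKO over GRflox hearts ± SE for the 37 genes, grouped by role, at ZT12 (dark) and ZT0 (light), 5 libraries per group; filled points have an edgeR adjusted p under 0.05. Bnip3 and Sesn1 lie farthest left at ZT12 (-0.67 and -0.60), and Sesn2 farthest right (0.45).

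Among initiation genes, Wipi1, which codes for a lipid-binding protein of the forming autophagosome, was higher in CardioGRKO hearts at both times. Its levels were 137, 136, 129, 144 and 131 CPM in CardioGRKO and 114, 123, 116, 117 and 124 CPM in GRflox hearts at ZT12, and 139.8, 140.4, 141, 138 and 144 CPM in CardioGRKO and 115, 125, 114, 116 and 129.6 CPM in GRflox hearts at ZT0. Every CardioGRKO library lay above every GRflox library of its time. This was a log2 fold change of 0.19 ± 0.04 at ZT12 (edgeR adjusted p = 0.00216) and 0.23 ± 0.04 at ZT0 (adjusted p = 0.000556).

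Atg13, a subunit of the Ulk complex, fell at ZT12. It had 68.6, 64.6, 56.8, 66.6 and 65.1 CPM in CardioGRKO and 67.5, 76.3, 78.9, 74.5 and 72.8 CPM in GRflox hearts at ZT12. The ranges overlapped by 1 library on each side, and the log2 fold change was -0.20 ± 0.05 (edgeR adjusted p = 0.00794), while at ZT0 it was -0.13 ± 0.05 (adjusted p = 0.123). Atg9a, which codes for a membrane-carrying lipid scramblase, averaged 151 ± 12.9 CPM in CardioGRKO and 174 ± 15.9 CPM in GRflox hearts at ZT12 (SD, n = 5 each), with a log2 fold change of -0.21 ± 0.06 (edgeR adjusted p = 0.0162). Without GRflox ZT12 replicate 3, the Atg9a change was -0.15 and its adjusted p 0.0702. Ulk1, the kinase gene of that complex, had log2 fold changes of -0.08 ± 0.07 at ZT12 and -0.06 ± 0.07 at ZT0, neither past the threshold.

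Becn1, the scaffold gene of the Beclin complex, passed the threshold at ZT0, with 64.6 ± 4.51 CPM in CardioGRKO and 57.7 ± 4.20 CPM in GRflox hearts (SD, n = 5 each) and a log2 fold change of 0.16 ± 0.05 (edgeR adjusted p = 0.0441). Its adjusted p was 0.0854, 0.0509, 0.127 and 0.0715 without GRflox ZT0 replicate 1, 3, 4 or 5, and 0.0956 and 0.150 without CardioGRKO ZT0 replicate 1 or 2. The call was also lost with limma-voom (adjusted p = 0.0527), with no filter (0.0625), with the compared groups alone (0.0890) and with all libraries thinned to the total of the shallowest (0.206). Of the exon bases of Becn1, 43.9% are shared with Cntd1 on the opposite strand, and the sources used here do not say if the counting used strand. Cntd1 passed the threshold in no comparison.

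The 6 conjugation genes, Atg3, Atg4b, Atg5, Atg7, Atg12 and Atg16l1, passed the threshold in none of the 5 comparisons by edgeR, DESeq2 or limma-voom. At an unadjusted p under 0.05, edgeR gave 1 of them between times in CardioGRKO hearts, 2 between times in GRflox hearts and none in the other comparisons. Their log2 fold changes between genotypes were -0.06 to 0.10 at ZT12 and -0.03 to 0.10 at ZT0.

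In the Atg8 family, Map1lc3b, which codes for the LC3 protein that is the standard marker of autophagosomes, was lower in CardioGRKO hearts at both times. It had 192, 182, 169.6, 200.4 and 182 CPM in CardioGRKO and 214, 236, 254, 219 and 239 CPM in GRflox hearts at ZT12. It had 161, 183, 183, 176 and 185 CPM in CardioGRKO and 214, 201, 198, 211 and 196 CPM in GRflox hearts at ZT0. Every CardioGRKO library lay below every GRflox library of its time. On the log2 scale Map1lc3b changed by -0.33 ± 0.05 at ZT12 (edgeR adjusted p = 5.31e-05) and -0.19 ± 0.05 at ZT0 (adjusted p = 0.0130). With all libraries thinned to the shallowest total, the ZT0 change was -0.16 and no longer passed (adjusted p = 0.0993).

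Gabarapl1, of the GABARAP branch, differed from Map1lc3b in direction at ZT0. It had 137, 144, 120.5, 113 and 112 CPM in CardioGRKO and 113, 103, 112, 103 and 117 CPM in GRflox hearts at ZT0, where the groups overlapped and the log2 fold change was 0.19 ± 0.06 (edgeR adjusted p = 0.0326). At ZT12 it had 137, 129, 146, 141 and 142 CPM in CardioGRKO and 133, 133, 141, 133 and 138 CPM in GRflox hearts, a log2 fold change of 0.04 ± 0.06 (adjusted p = 0.732). The ZT0 call was lost without GRflox ZT0 replicate 2 or 4 (adjusted p = 0.0914 and 0.0851) and without CardioGRKO ZT0 replicate 1 or 2 (adjusted p = 0.0900 and 0.127), as well as with the compared groups alone (adjusted p = 0.0733) and thinned (adjusted p = 0.0935). Of the exon bases of Gabarapl1, 28.3% are shared with 1700101I11Rik on the opposite strand. That gene had 13.6 ± 2.003 CPM in CardioGRKO and 10.5 ± 1.43 CPM in GRflox hearts at ZT0 (SD, n = 5 each). It also passed the threshold at ZT0, with a log2 fold change of 0.36 ± 0.11 (edgeR adjusted p = 0.0284), a call lost in 5 of 17 alternatives. The part of that gene's reads in the result was not tested. The other members of the family, Map1lc3a, Gabarap and Gabarapl2, passed the threshold in no comparison by edgeR, DESeq2 or limma-voom, and 1 of them had an unadjusted p under 0.05, between times in GRflox hearts.

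Among mitophagy genes, Bnip3, whose product sits in the outer mitochondrial membrane and binds Atg8 proteins, had the largest genotype change of the 37 genes in size at both times. Its levels were 82.4, 77.1, 86.7, 82.2 and 81.4 CPM in CardioGRKO and 128, 109, 153, 138 and 124 CPM in GRflox hearts at ZT12. At ZT0 they were 77.2, 79.5, 73.1, 68.0 and 80.5 CPM in CardioGRKO and 99.1, 104, 112, 95.4 and 102 CPM in GRflox hearts. Every CardioGRKO library was lower than every GRflox library, also across times. On the log2 scale the difference was -0.67 ± 0.07 at ZT12 (edgeR adjusted p = 1.20e-07) and -0.44 ± 0.07 at ZT0 (adjusted p = 8.06e-05). The change differed between the times by -0.23 ± 0.10, which did not pass the threshold (adjusted p = 0.737). Some 22.3% of the exon bases of Bnip3 are shared with an opposite-strand model, Gm45507. Its paralog Bnip3l, also a mitophagy receptor gene, had log2 fold changes of -0.05 ± 0.05 at ZT12 and 0.04 ± 0.05 at ZT0, neither past the threshold.

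Pink1 averaged 742 ± 103 CPM in CardioGRKO and 885 ± 69.5 CPM in GRflox hearts at ZT12 (SD, n = 5 each), a log2 fold change of -0.26 ± 0.08 (edgeR adjusted p = 0.0159). The call was lost without GRflox ZT12 replicate 2 (adjusted p = 0.0583) and without CardioGRKO ZT12 replicate 1 or 3 (adjusted p = 0.0544 and 0.0526). The cargo receptor genes Sqstm1 (p62), Nbr1 and Optn did not pass the threshold between genotypes. Sqstm1 had a log2 fold change of 0.12 ± 0.07 at ZT12 and 0.20 ± 0.07 at ZT0 (edgeR adjusted p = 0.266 and 0.0730), and the ZT0 value passed, at 0.26 with adjusted p = 0.0163, without CardioGRKO ZT0 replicate 5.

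Among sensing genes, the sestrins, which restrain mTORC1 through its amino acid sensing branch, changed in opposite directions at ZT12. Sesn1 had 106, 111, 102, 111 and 117 CPM in CardioGRKO and 168, 169, 176, 141 and 176 CPM in GRflox hearts at ZT12. It had 101, 101, 98.1, 99.1 and 100.4 CPM in CardioGRKO and 91.0, 103, 96.5, 97.7 and 122 CPM in GRflox hearts at ZT0. At ZT12 all CardioGRKO libraries were below all GRflox libraries, and at ZT0 the groups overlapped. Its log2 fold change was -0.60 ± 0.06 at ZT12 (edgeR adjusted p = 2.94e-07) and -0.03 ± 0.07 at ZT0 (adjusted p = 0.815).

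Sesn2 was the lowest member and rested on few reads, 38 to 288 counts per library. It had 7.66, 6.65, 7.97, 7.25 and 6.61 CPM in CardioGRKO and 4.78, 5.98, 5.50, 5.72 and 4.51 CPM in GRflox hearts at ZT12. It had 6.26, 7.55, 6.46, 7.64 and 5.75 CPM in CardioGRKO and 5.71, 5.03, 6.25, 4.93 and 4.87 CPM in GRflox hearts at ZT0. All CardioGRKO libraries were above all GRflox libraries at ZT12, and the groups overlapped at ZT0. For Sesn2 the log2 fold change was 0.45 ± 0.10 at ZT12 (edgeR adjusted p = 0.00285) and 0.36 ± 0.11 at ZT0 (adjusted p = 0.0236). The ZT0 call was lost without GRflox ZT0 replicate 2, 4 or 5 (adjusted p = 0.0599, 0.0524 and 0.0633) and without CardioGRKO ZT0 replicate 2 or 4 (adjusted p = 0.0818 and 0.0738). With all libraries thinned to the shallowest total, the ZT0 change was 0.19 (adjusted p = 0.523).

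Foxo4, a forkhead transcription factor gene, fell at ZT12. It had 57.8, 59.8, 60.2, 58.8 and 65.4 CPM in CardioGRKO and 63.7, 70.5, 67.6, 66.7 and 69.1 CPM in GRflox hearts, and 1 CardioGRKO library reached into the GRflox range. The log2 fold change was -0.16 ± 0.04 at ZT12 (edgeR adjusted p = 0.00784) and -0.08 ± 0.04 at ZT0 (adjusted p = 0.227). The ZT12 call of Foxo4 was lost on thinning (adjusted p = 0.0748). Tfeb, which codes for the transcription factor best known for driving lysosomal genes, had log2 fold changes of 0.03 ± 0.07 at ZT12 and -0.08 ± 0.07 at ZT0, neither past the threshold.

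Of the lysosome genes, Lamp2, which codes for a membrane protein needed for autophagosome clearance in heart muscle, had 168, 160.4, 156, 163 and 174 CPM in CardioGRKO and 179, 187, 186, 169.6 and 191 CPM in GRflox hearts at ZT12. The ranges overlapped, and the log2 fold change was -0.15 ± 0.04 (edgeR adjusted p = 0.0103), a call lost on thinning (adjusted p = 0.102). Lamp1 changed by -0.17 ± 0.05 on the log2 scale at ZT12 (adjusted p = 0.0163), a call lost without GRflox ZT12 replicate 4 or CardioGRKO ZT12 replicate 5 (adjusted p = 0.0609 and 0.0517) and on thinning (adjusted p = 0.0862).
Of the genes of the cathepsins, lysosomal proteases, Ctsl passed the threshold between genotypes at ZT12 alone, Ctsb at ZT0 alone and Ctsd at neither time. Ctsl had 154 to 166 CPM in CardioGRKO and 172 to 202 CPM in GRflox hearts at ZT12, groups that did not overlap, with a log2 fold change of -0.18 ± 0.06 (edgeR adjusted p = 0.0257). Ctsb had 774 to 863 CPM in CardioGRKO and 654 to 773 CPM in GRflox hearts at ZT0, with a log2 fold change of 0.17 ± 0.05 (edgeR adjusted p = 0.0354). The Ctsl call was lost without GRflox ZT12 replicate 3 (adjusted p = 0.104) and without CardioGRKO ZT12 replicate 2, 4 or 5 (adjusted p = 0.0580, 0.0508 and 0.0510). The Ctsb call was lost without GRflox ZT0 replicate 1, 2 or 5 (adjusted p = 0.0557, 0.0778 and 0.101) and without CardioGRKO ZT0 replicate 1, 2 or 3 (adjusted p = 0.0605, 0.0923 and 0.0535). The cathepsins are also abundant in macrophages. The summed level of 7 macrophage markers was 189 to 243 CPM in CardioGRKO and 197 to 221 CPM in GRflox hearts at ZT12, and 179 to 218 CPM in CardioGRKO and 168 to 241 CPM in GRflox hearts at ZT0. None of the 7 markers passed the threshold between genotypes by edgeR, DESeq2 or limma-voom, and 1 at ZT12 and 0 at ZT0 had an unadjusted p under 0.05. The members that fell at ZT12 did so beside the lower cardiomyocyte marker sums given above, whose part in the result was not tested.

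**Figure D3:**
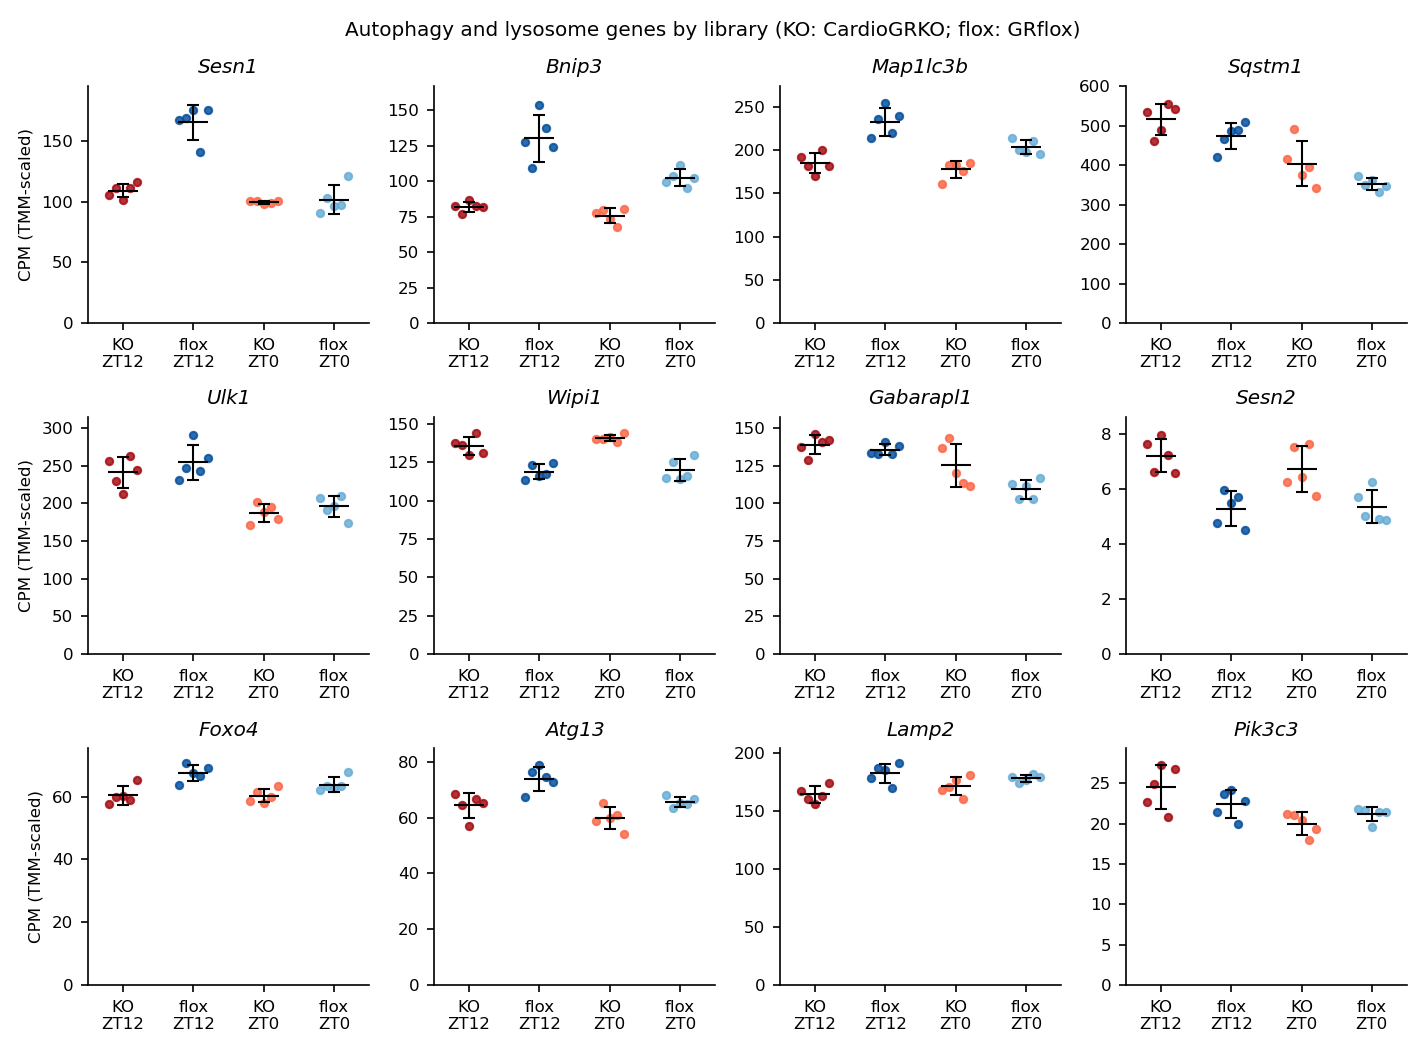
CPM of the 12 members with the smallest adjusted p-values in any comparison, from 0 on each axis. Dots are single libraries, and bars the mean ± SD of 5 libraries, for CardioGRKO and GRflox hearts at ZT12 and then at ZT0. Sesn1 in GRflox hearts at ZT12 (141 to 176 CPM) stands above the remaining 3 groups (91.0 to 122 CPM).

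The second question was how the genes differed between times within each genotype. These comparisons share libraries with those between genotypes, so a low or high group enters both. In GRflox hearts, 7 of 37 genes (18.9%) changed between ZT12 and ZT0, all higher at ZT12, where 17.3% of all genes tested changed (8.13% higher and 9.17% lower). They were Ulk1, Atg13, Map1lc3b, Gabarapl1, Sqstm1, Bnip3 and Sesn1. In CardioGRKO hearts, 4 of 37 (10.8%) changed, 3 higher (Ulk1, Pik3c3 and Sqstm1) and 1 lower (Optn), where 9.17% of all genes tested changed (4.42% higher and 4.75% lower). The median log2 fold change of the 37 genes was 0.08 in GRflox hearts, against 0.01 for all genes, and 0.04 in CardioGRKO hearts, against 0.00 for all genes. Libraries of the times did not overlap for 7 members in GRflox and 3 in CardioGRKO hearts, as for 12.5% and 7.11% of all genes.

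**Figure D4:**
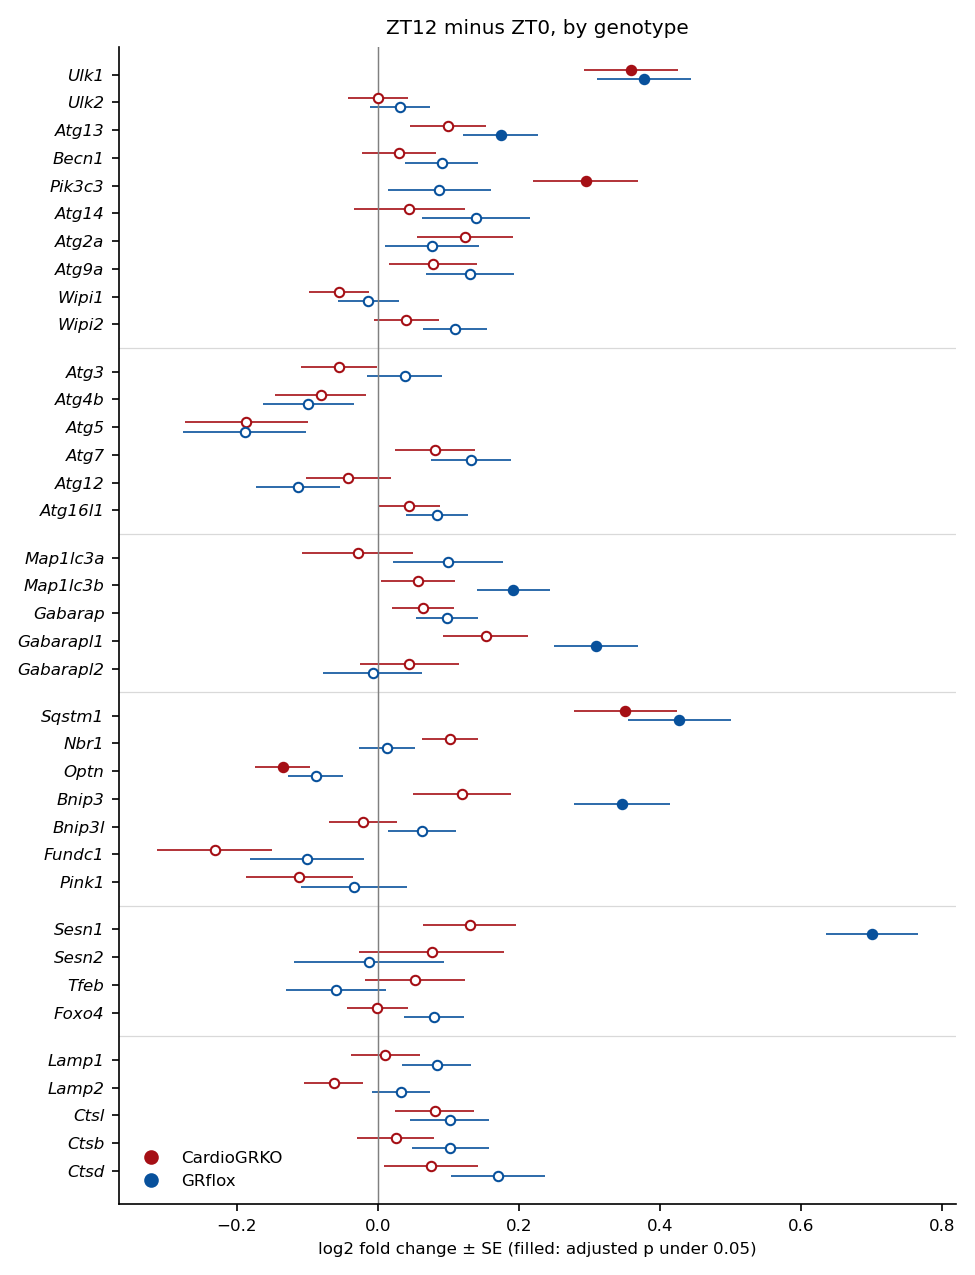
Log2 fold change of ZT12 over ZT0 ± SE for the 37 genes, grouped by role, in CardioGRKO and in GRflox hearts, 5 libraries per group; filled points have an edgeR adjusted p under 0.05. Ulk1 and Sqstm1 are filled in both genotypes, and Sesn1 lies far right in GRflox hearts alone (0.70, against 0.13 in CardioGRKO hearts).

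Ulk1 and Sqstm1 were higher at ZT12 in both genotypes. Ulk1 had 256, 229.9, 212, 262 and 245 CPM at ZT12 and 171, 202, 188, 195 and 179.7 CPM at ZT0 in CardioGRKO hearts. It had 231, 246, 291, 243 and 259.8 CPM at ZT12 and 207, 190.5, 197, 210.2 and 174 CPM at ZT0 in GRflox hearts. Within each genotype every ZT12 library was above every ZT0 library. The log2 fold change was 0.36 ± 0.07 in CardioGRKO (edgeR adjusted p = 0.000873) and 0.38 ± 0.07 in GRflox hearts (adjusted p = 0.000245), and the difference between them was -0.02 ± 0.09 (adjusted p = 0.996).

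Sqstm1, whose product p62 carries ubiquitin-tagged cargo, had 534, 460.2, 489, 555 and 542 CPM at ZT12 and 415, 493, 375, 396 and 343 CPM at ZT0 in CardioGRKO hearts. It had 421, 466, 487, 489 and 509 CPM at ZT12 and 372, 349.7, 362, 332 and 348 CPM at ZT0 in GRflox hearts. The times overlapped in CardioGRKO hearts through 1 high ZT0 library and were separate in GRflox hearts. The log2 fold change was 0.35 ± 0.07 in CardioGRKO (edgeR adjusted p = 0.00269) and 0.43 ± 0.07 in GRflox hearts (adjusted p = 0.000184). Of its exon bases 17.3% are shared with 3010026O09Rik (Mrnip) on the opposite strand. That gene had 3.86 ± 0.796 CPM at ZT12 and 2.53 ± 0.502 CPM at ZT0 in GRflox hearts (SD, n = 5 each), while Sqstm1 averaged 475 ± 33.3 CPM and 353 ± 15.1 CPM in the same libraries. There 3010026O09Rik also passed the threshold, with a log2 fold change of 0.62 ± 0.17 (edgeR adjusted p = 0.0134), a call lost on thinning (adjusted p = 0.422).

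Map1lc3b, Gabarapl1 and Bnip3 passed the threshold between times in GRflox hearts and not in CardioGRKO hearts, but the difference of the time effects passed for none of them. For Map1lc3b the log2 fold change over ZT0 was 0.06 ± 0.05 in CardioGRKO (edgeR adjusted p = 0.573) and 0.19 ± 0.05 in GRflox hearts (adjusted p = 0.0118), with a difference of -0.13 ± 0.07 (adjusted p = 0.879). For Gabarapl1 it was 0.15 ± 0.06 in CardioGRKO (adjusted p = 0.119) and 0.31 ± 0.06 in GRflox hearts (adjusted p = 0.000664), with a difference of -0.16 ± 0.08 (adjusted p = 0.879). Without CardioGRKO ZT0 replicate 2, the CardioGRKO value of Gabarapl1 was 0.20 and passed (adjusted p = 0.0233).
For Bnip3, the level in GRflox hearts was 109 to 153 CPM at ZT12 and 95.4 to 112 CPM at ZT0, overlapping ranges. Its log2 fold change was 0.12 ± 0.07 in CardioGRKO (edgeR adjusted p = 0.331) and 0.35 ± 0.07 in GRflox hearts (adjusted p = 0.000766). Atg13 changed by 0.17 ± 0.05 in GRflox hearts (adjusted p = 0.0263), a call lost without GRflox ZT0 replicate 2 or 4 (adjusted p = 0.0693 and 0.0519) or GRflox ZT12 replicate 2 or 3 (adjusted p = 0.0598 and 0.0828).

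Pik3c3, which codes for the lipid kinase of the Beclin complex, and Optn, the optineurin receptor gene, passed the threshold between times in CardioGRKO hearts. Pik3c3 had 22.7, 24.9, 27.2, 20.9 and 26.8 CPM at ZT12 and 21.2, 21.0, 20.5, 17.9 and 19.4 CPM at ZT0 in CardioGRKO hearts, where 1 ZT12 library lay below 2 ZT0 libraries. Its log2 fold change was 0.29 ± 0.07 in CardioGRKO (edgeR adjusted p = 0.0123) and 0.09 ± 0.07 in GRflox hearts (adjusted p = 0.462), with a difference of 0.21 ± 0.10 (adjusted p = 0.851). Without CardioGRKO ZT0 replicate 4 its change was 0.24 and the adjusted p 0.0591, and on thinning the adjusted p was 0.0660. Optn had 116 to 124 CPM at ZT12 and 131 to 137 CPM at ZT0 in CardioGRKO hearts, which did not overlap. Its log2 fold change was -0.13 ± 0.04 (edgeR adjusted p = 0.0302) in CardioGRKO and -0.09 ± 0.04 (adjusted p = 0.129) in GRflox hearts. The Optn call was lost without CardioGRKO ZT12 replicate 2 or 5 (adjusted p = 0.0638 and 0.0541) or CardioGRKO ZT0 replicate 3 (adjusted p = 0.0556), with the compared groups alone (adjusted p = 0.0571) and on thinning (adjusted p = 0.109). No lysosome gene of the list passed the threshold between times in either genotype by edgeR, DESeq2 or limma-voom, and 1 of the 5, in GRflox hearts, had an unadjusted p under 0.05. Endothelial markers, whose sum was lower at ZT12, and some markers of other cell types changed between times, as given above. Their part in these time differences was not tested.

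The third question, whether the time effect differed between genotypes, was tested by the interaction. Sesn1 alone passed among the 37 genes (2.70%), where 0.186% of all genes tested passed, 26 genes (0.0643% with a positive and 0.121% with a negative difference). Its ZT12 over ZT0 change was 0.13 ± 0.07 in CardioGRKO (edgeR adjusted p = 0.249) and 0.70 ± 0.07 in GRflox hearts (adjusted p = 3.54e-08), a difference of -0.57 ± 0.09 (adjusted p = 0.00531). The level of Sesn1 in CardioGRKO hearts was 102 to 117 CPM at ZT12 and 98.1 to 101 CPM at ZT0, so the times did not overlap there either. In the 26 alternatives run, the interaction of Sesn1 stayed past the threshold, with differences of -0.64 to -0.54. The median interaction of the 37 genes was -0.06, and 28 of 37 estimates were negative, while the median of all genes was 0.00. The lean was not particular to the list, since 81 of 127 other pathway genes, described next, also had negative estimates (median -0.04). Nor was it particular to these pathways, since all 8 cardiomyocyte markers had negative estimates (median -0.06). Medians of the other marker lists ran from -0.03 (endothelial) to 0.03 (fibroblast). The part of cardiomyocyte RNA content in the lean was not tested.

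A further 128 genes of the same pathways, which are not in the list of 37, were looked up for comparison, and 127 passed the filter. At ZT12, 26 of 127 (20.5%) changed between genotypes, 9 higher and 17 lower. At ZT0, 15 of 127 (11.8%) changed, 7 higher and 8 lower. Between times, 14 of 127 (11.02%) changed in CardioGRKO hearts, 9 higher at ZT12, and 27 of 127 (21.3%) in GRflox hearts, 24 higher at ZT12. With both directions together these shares lay near the background of all genes given above, while the 24 higher at ZT12 in GRflox hearts stand beside 8.13% of all genes. Between times in GRflox hearts the count was 14 without GRflox ZT0 replicate 2 and 16 without GRflox ZT12 replicate 3. In CardioGRKO hearts it was 7 without CardioGRKO ZT0 replicate 3 or 5, 9 without CardioGRKO ZT0 replicate 4, 8 without CardioGRKO ZT12 replicate 1 or 5 and 9 without CardioGRKO ZT12 replicate 2. Between genotypes at ZT0 it was 9 without GRflox ZT0 replicate 4 or CardioGRKO ZT0 replicate 1, and 7 without CardioGRKO ZT0 replicate 2.

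Foxo3, a forkhead factor gene whose product is known to switch on autophagy genes in muscle, was the single gene of the 127 that passed the interaction. It had 62.3, 56.2, 55.9, 61.7 and 56.8 CPM in CardioGRKO and 96.3, 96.1, 124, 93.4 and 109.7 CPM in GRflox hearts at ZT12. It had 44.3, 50.7, 50.7, 55.4 and 49.8 CPM in CardioGRKO and 59.3, 59.4, 53.2, 53.8 and 53.5 CPM in GRflox hearts at ZT0. As with Sesn1, GRflox hearts at ZT12 stood above the remaining 3 groups. The log2 fold change between genotypes was -0.83 ± 0.07 at ZT12 (edgeR adjusted p = 5.58e-09) and -0.14 ± 0.07 at ZT0 (adjusted p = 0.202). Between times it was 0.21 ± 0.07 in CardioGRKO (adjusted p = 0.0627) and 0.90 ± 0.07 in GRflox hearts (adjusted p = 1.76e-09), with a difference of -0.69 ± 0.10 (adjusted p = 0.00126). Without CardioGRKO ZT0 replicate 4, the CardioGRKO value was 0.24 and passed (adjusted p = 0.0488).

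Of 15 fusion and tethering genes, 3 fell (20%) and none rose between genotypes at ZT12. Of all genes 21.1% changed, 10.4% higher and 10.7% lower. At that time 1 of 26 lysosomal hydrolase genes rose and 3 fell, and 2 of 17 lysosomal membrane and transport genes rose and none fell. Of 15 proton pump genes, 2 rose and 1 fell. Rab7, the small GTPase gene of late endosome fusion, averaged 115 ± 7.16 CPM in CardioGRKO and 144 ± 12.0 CPM in GRflox hearts at ZT12 (SD, n = 5 each), with a log2 fold change of -0.33 ± 0.05 (edgeR adjusted p = 7.69e-05). At ZT0 its change was -0.20 ± 0.05 (adjusted p = 0.0162), a call lost without GRflox ZT0 replicate 3 (adjusted p = 0.0507). Plekhm2, an adaptor gene of lysosome movement, changed by -0.31 ± 0.05 at ZT12 (edgeR adjusted p = 0.000168), and Psap, the gene of the saposin precursor that serves lipid breakdown, by -0.22 ± 0.04 (adjusted p = 0.000182). Deptor, an mTOR inhibitor gene, rose between genotypes by 0.36 ± 0.08 at ZT12 and 0.32 ± 0.08 at ZT0 (edgeR adjusted p = 0.00219 and 0.0114). The ZT0 call of Deptor was lost without CardioGRKO ZT0 replicate 2 (adjusted p = 0.0576) and on thinning (adjusted p = 0.0538). Atp6ap1, an accessory subunit gene of the lysosomal proton pump, rose by 0.20 ± 0.04 at ZT0 (edgeR adjusted p = 0.000677). At ZT12 Atp6ap1 had 169 to 184 CPM in CardioGRKO and 151 to 163 CPM in GRflox hearts. Ddit4, an mTORC1 inhibitor gene induced by stress and glucocorticoids, had the largest change of the 127 at ZT0, -0.98 ± 0.23 (edgeR adjusted p = 0.00496). Its level spread widely, at 23.8 to 43.3 CPM in CardioGRKO and 35.7 to 89.6 CPM in GRflox hearts, and the groups overlapped.

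Between times, the lysosomal cholesterol transporter gene Npc1 was higher at ZT12 in both genotypes. It averaged 84.1 ± 10.7 CPM at ZT12 and 58.4 ± 7.71 CPM at ZT0 in CardioGRKO hearts, and 97.6 ± 8.70 CPM at ZT12 and 64.0 ± 3.68 CPM at ZT0 in GRflox hearts (SD, n = 5 each). The log2 fold change was 0.51 ± 0.09 in CardioGRKO (edgeR adjusted p = 0.000309) and 0.61 ± 0.08 in GRflox hearts (adjusted p = 1.51e-05). The lysosomal hydrolase gene Naglu also rose in both, by 0.37 ± 0.08 in CardioGRKO and 0.67 ± 0.08 in GRflox hearts (edgeR adjusted p = 0.00264 and 8.03e-07). Mitf, a relative of Tfeb, was lower at ZT12 in both, by -0.29 ± 0.05 in CardioGRKO and -0.25 ± 0.05 in GRflox hearts (edgeR adjusted p = 0.000194 and 0.000479). Between genotypes Mitf was lower in CardioGRKO hearts, by -0.22 ± 0.05 at ZT12 and -0.18 ± 0.05 at ZT0 (edgeR adjusted p = 0.00125 and 0.0113). Both genotype calls of Mitf were lost on thinning (adjusted p = 0.102 and 0.0727).

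**Figure D5:**
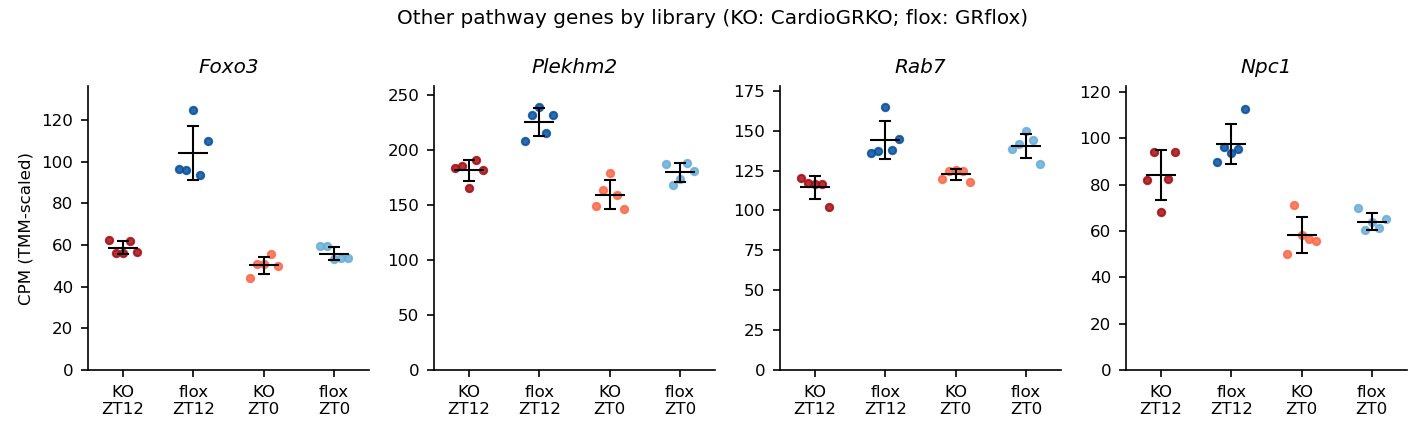
CPM of 4 pathway genes outside the list of 37, from 0 on each axis. Dots are single libraries, and bars the mean ± SD of 5 libraries, for CardioGRKO and GRflox hearts at ZT12 and then at ZT0. Foxo3 is highest in GRflox hearts at ZT12 (93.4 to 124 CPM), and the mean of Npc1 is higher at ZT12 than at ZT0 in both genotypes.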

How the data were processed

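The deposited files hold raw whole-number read counts per gene for 20 poly(A) RNA-seq libraries. STAR 2.5.1, Subread 1.5.1 (featureCounts), DESeq2 1.38.3 and mm10 are named, without roles, in the submitters' processing notes. The sources used here do not give strand use, treatment of multi-mapping reads or the annotation release, so overlapping genes may share or lose reads.

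Each table had 24918 lines, summed by Entrez identifier to 24059 genes. Counts were tested with edgeR 4.0.16 (quasi-likelihood F-test, R 4.3.3) in a model of 4 group means on all 20 libraries, with TMM factors (0.961 to 1.040) and filterByExpr (minimum count 10, minimum total 15), and Benjamini-Hochberg adjustment over 14007 genes at 0.05. The code was tested on simulated data. The standard error of a log2 fold change is its size over the square root of F. CPM values are TMM-scaled. The count tables gave no gene lengths, so levels per kb use exon lengths of GENCODE M21. No 2 libraries of a group agreed within sampling noise (4.22 to 20.96 as mean chi-square over genes), so none was treated as a repeat. At a common biological coefficient of variation of 8.78%, depth limited precision for low genes such as Sesn2.

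The members and gene lists were chosen with earlier results of these data known. Library values are given for the 12 members with the smallest adjusted p in any comparison, and up to 6 other pathway genes per comparison could be named. Of 128 such genes, 6 were matched through the RefSeq table. Alternatives were DESeq2 1.42.0, limma-voom (limma 3.58.1), other size factors, no filter, the compared groups alone, a replicate block, thinning to the shallowest library, and leaving out each library. Figures used matplotlib 3.10.9.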

Additional observations from a re-analysis of the deposited data

Results flagged for a closer look

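Sesn1 and Foxo3 had time effects that differed between genotypes by the interaction test, by -0.57 and -0.69 on the log2 scale (edgeR adjusted p = 0.00531 and 0.00126). Within groups of 5 libraries, a Dixon test was run for 52 sets of values of the 12 described members and Foxo3, and 3 libraries stood apart, where chance gives about 1 in 20. Sesn1 was 141 CPM in GRflox ZT12 replicate 4, below the 168 to 176 CPM of the other libraries of that group. Foxo4 was 67.9 CPM in GRflox ZT0 replicate 5, above the 62.0 to 63.5 CPM of the others. Pik3c3 was 19.6 CPM in GRflox ZT0 replicate 3, below the 21.4 to 21.9 CPM of the others.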

How the results depend on the processing

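Of the 31 calls of the 37 genes over 5 comparisons, 17 were kept in every alternative run, 14 were lost in at least 1 and none reversed. Thinning all libraries to the shallowest total left 2 member calls between times in CardioGRKO hearts (4 unthinned). It also ended the member calls of Foxo4, Lamp1 and Lamp2 at ZT12 and of Becn1, Map1lc3b, Gabarapl1 and Sesn2 at ZT0, where 9 and 5 members were then called (12 and 7 unthinned). At ZT0 the members then called were not all among those called unthinned. For the other pathway genes it left 15 and 6 between genotypes at ZT12 and ZT0 (26 and 15), and 7 and 9 between times in CardioGRKO and GRflox hearts (14 and 27). Over all genes it left 1909 and 1309 between genotypes at ZT12 and ZT0 (2952 and 2060), and 760 and 1490 between times in CardioGRKO and GRflox hearts (1284 and 2423). With the compared groups alone, 6 other pathway genes changed between times in CardioGRKO hearts. DESeq2 called 71 interactions over all genes (26 by edgeR). Leaving out 1 library at a time gave 3 to 9 member calls at ZT0, 7 to 17 other pathway calls at ZT0, 7 to 18 and 14 to 24 such calls between times in CardioGRKO and GRflox hearts, and 16 to 33 interactions over all genes. The cause was not tested.

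The labels do not say that the replicate numbers pair libraries, and the values below did not settle it. Deviations of same-numbered libraries correlated at -0.272 to 0.234 over 30 pairs, 8 of them over 0.1, and the best match of a library carried its own number in 7 of 20 cases. With a replicate block, 12 members changed between genotypes at ZT12, 8 at ZT0, 4 and 7 between times in CardioGRKO and GRflox hearts, and 1 in the interaction.

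Values near 0 that never passed the threshold changed sign. Sesn1 between genotypes at ZT0 was -0.066 to 0.041 with 1 library left out. Between times in CardioGRKO hearts, Foxo4 was 0.0014 with the replicate block, 0.014 thinned and -0.036 to 0.0078 with 1 library left out. Between times in GRflox hearts, Pik3c3 was -0.039 thinned, Wipi1 was 0.022 thinned and -0.033 to 0.017 with 1 library left out, and Sesn2 was -0.061 to 0.054 with 1 library left out.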

Other observations

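Sesn1 and Foxo3, the list member and the other pathway gene that passed the interaction, lie on the same chromosome, at chr10:41810574-41908436 and chr10:42181845-42276695 in mm10, 273 kb apart. Their neighbourhood was looked at after their values were seen. Of 10 other genes tested within 500 kb of the pair, none passed the interaction by edgeR (lowest adjusted p = 0.645), DESeq2 or limma-voom, and 1 had an unadjusted p under 0.05. Between genotypes at ZT12, 1 of the 10 rose and 2 fell, where 21.1% of all genes changed, and between times in GRflox hearts 1 rose and 1 fell, where 17.3% of all genes changed. Armc2, which lies between Sesn1 and Foxo3, had 19.3 ± 3.17 CPM in CardioGRKO and 26.4 ± 2.99 CPM in GRflox hearts at ZT12, and 21.8 ± 2.18 CPM in CardioGRKO and 26.8 ± 5.08 CPM in GRflox hearts at ZT0 (SD, n = 5 each). Its log2 fold change between genotypes at ZT12 was -0.46 ± 0.12 (edgeR adjusted p = 0.00613), and thinned to the shallowest library its adjusted p was 0.0596. Between times in GRflox hearts its change was -0.02 ± 0.12 (adjusted p = 0.928).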
